A study of Mus musculus with 6 samples.

Results

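The members described here are 9 genes of the receptor for ciliary neurotrophic factor (CNTF) and of the Jak-Stat cascade behind it. They comprise the ligands Cntf and Clcf1, the receptor subunits Cntfr, Lifr and Il6st, the kinases Jak1 and Jak2, the transcription factor Stat3 and its inhibitor Socs3. A probe set was taken as a member if the array annotation gave it to exactly 1 of these symbols, which yielded 24 probe sets for 8 of the 9 genes, out of 45101 probe sets and 18193 genes with a measurement of their own on the array. The only probe set that lists Cntf lists Zfp91 and Gm44505 as well, so Cntf itself has no measurement. RNA came from GFP-positive motoneurons of the cervical spinal cord of E11.5 mouse embryos carrying the HB9::GFP transgene, in which the promoter of the motoneuron gene Mnx1 (HB9) drives the reporter. Each of 3 littermate embryos gave 1 left pool and 1 right pool, cut by laser from shared sections, and each pool was read on 1 Affymetrix array. All 6 pools carry the transgene, and no treatment was given. A pool holds a captured area and not sorted cells, so fewer cells of a type and less RNA per cell cannot be told apart.

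CNTF does not signal through a single chain. Cntfr is anchored in the outer leaflet of the membrane and binds the ligand, and Lifr and Il6st (gp130) then pair and carry the signal across the membrane. Jak1 and Jak2 sit on the inner parts of these chains, phosphorylate them and activate Stat3, which enters the nucleus and switches on target genes. One such target, Socs3, binds gp130 and the kinases and shuts the signal off. In the mouse, loss of Cntfr costs motoneurons before birth whereas loss of Cntf does not, and Clcf1 is a second ligand of the same receptor. Left and right pools of an embryo were compared to ask whether motoneurons on the 2 sides of the neck differ in their transcripts.

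The 3 receptor subunits, both kinases and Stat3 each had a probe set above 200, the signal limit of the study's methods, in every pool, whereas Clcf1 and Socs3 stayed below it in all 6. Signals are given in the linear units of the MAS5 algorithm, and signals of different probe sets are not set against each other as levels. Probe sets that nowhere came up to 200 were set aside, which left 15 of the 24 member probe sets, for 6 genes, and all 15 reached the limit on both sides. The 9 others are those of Clcf1 (3) and Socs3 (3), 2 of Stat3 and 1 of Cntfr.

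**Figure D1:**
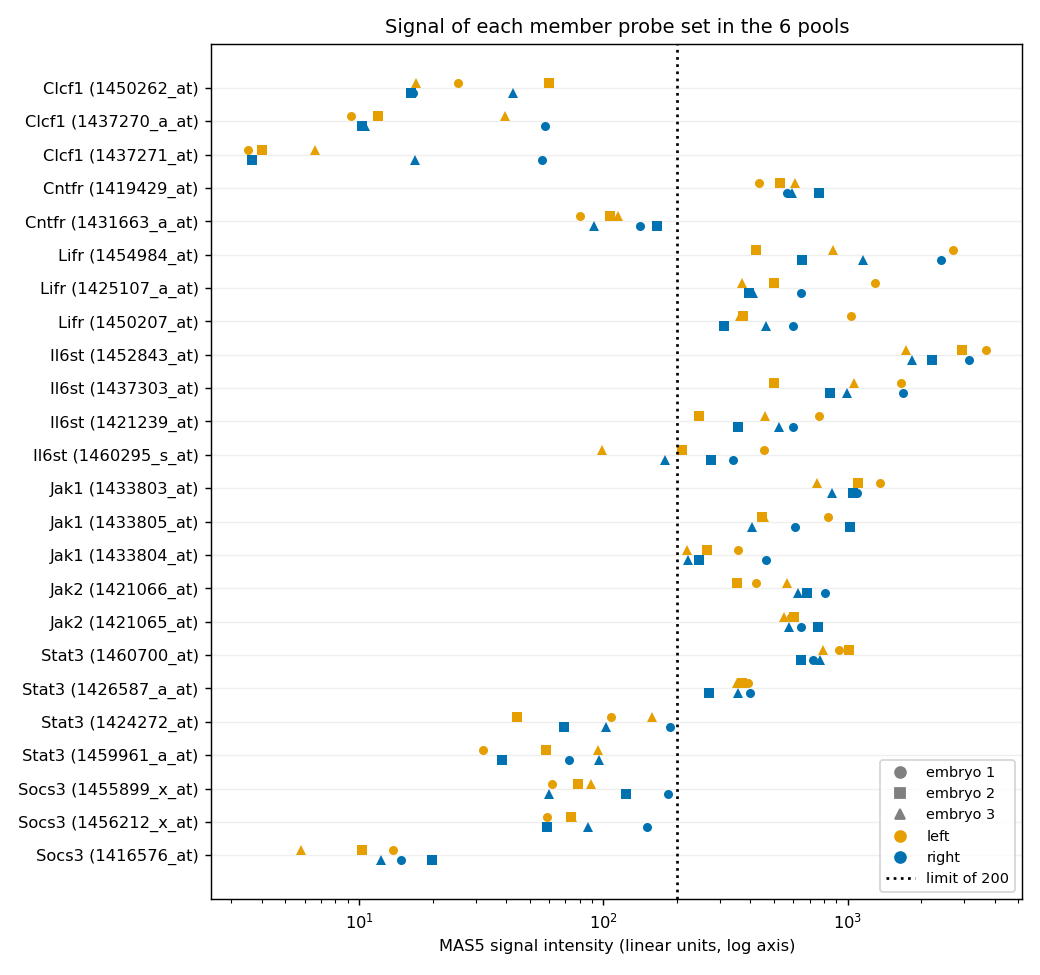
MAS5 signal (log axis) of the 24 member probe sets with orange for left and blue for right pools and a shape for embryo 1 (circle), embryo 2 (square) and embryo 3 (triangle), with the limit of 200 as a dotted line. Probe sets of Clcf1 and Socs3 lie left of the line in all 6 pools, and those of Lifr and Il6st are highest in embryo 1.

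Cntfr, which gives the complex its affinity for CNTF, was read by its probe set 1419429_at, with left signals of 435, 527 and 608 and right signals of 566, 762 and 592 for embryos 1, 2 and 3. The right pool was the higher in embryos 1 and 2, and the ranges of the 2 sides overlapped. The log2 of the right signal over the left within an embryo, log2(R/L), averaged 0.29 ± 0.30 (SD, n = 3 embryos), with a 95% interval of −0.22 to 0.80 by limma, fitted over all 21853 tested probe sets with side and embryo as terms (adjusted p = 0.974). The second probe set of Cntfr, 1431663_a_at, lay between 80.4 and 166. It showed the same order of the sides as the first in each embryo.

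Over the 6 arrays, the probe sets that followed Cntfr most closely were those of Ddhd2, a phospholipase, Kdm5c, a histone demethylase, and Dpp8, a dipeptidyl peptidase. After each was centred on its mean over the 6 arrays, their log2 signals differed from those of Cntfr by a root mean square of 0.034, 0.051 and 0.054. They were the nearest of 18948 probe sets compared, and Cntfr itself varied with an SD of 0.27. Among so many probe sets over 6 arrays some can lie this near by chance, and shared regulation was not tested.

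Among tested member probe sets, those of Lifr and Il6st varied most between embryos, as given in the next paragraphs. Socs3 is the feedback target of Stat3. The stretches just upstream of these 3 genes are therefore shown. Each is the 160 bases before an annotated start, 5′ to 3′ on the gene's strand, from RefSeq on build GRCm38.p6. Lifr has 2 such starts, at chr15:7129412-7129571 (plus strand) and chr15:7140382-7140541 (plus strand). Il6st lies at chr13:112463910-112464069 (plus strand) and Socs3 at chr11:117969367-117969526 (minus strand). Capitals mark the Stat element TTCNNNGAA, the GC box GGGCGG and the CCAAT box, on either strand, none of which overlap here.
Lifr, first start: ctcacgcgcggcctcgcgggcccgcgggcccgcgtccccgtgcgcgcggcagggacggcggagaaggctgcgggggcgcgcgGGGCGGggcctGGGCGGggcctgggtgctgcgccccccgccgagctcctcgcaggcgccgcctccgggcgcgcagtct
Lifr, second start: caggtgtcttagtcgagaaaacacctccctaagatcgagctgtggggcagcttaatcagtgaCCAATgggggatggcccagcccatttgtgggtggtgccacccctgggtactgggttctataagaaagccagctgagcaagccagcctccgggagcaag
Il6st: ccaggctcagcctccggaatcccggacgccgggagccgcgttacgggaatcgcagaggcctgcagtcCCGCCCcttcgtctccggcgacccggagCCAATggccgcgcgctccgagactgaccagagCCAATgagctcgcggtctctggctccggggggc
Socs3: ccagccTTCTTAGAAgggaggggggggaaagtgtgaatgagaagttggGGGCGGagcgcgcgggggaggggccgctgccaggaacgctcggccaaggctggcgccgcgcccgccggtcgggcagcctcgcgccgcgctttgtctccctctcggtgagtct
A Stat element begins 154 bases before the Socs3 start, and none occurs in the 3 stretches of Lifr and Il6st. Such an element is found in 4.36% of 32851 promoter stretches of this length, a GC box in 29.3% and a CCAAT box in 25.6%. The first Lifr stretch holds 2 GC boxes and the second a CCAAT box, whereas Il6st has 2 CCAAT boxes and 1 GC box, and Socs3 has 1 GC box. Of the 14 stretches for 8 members, 1 holds a Stat element. These are matches of letters and not measured binding.

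Lifr, the signalling subunit shared with leukemia inhibitory factor, differed between embryos, and by 1454984_at far more than between sides. That probe set gave left signals of 2693, 420.2 and 875 and right signals of 2423, 651 and 1161 for embryos 1, 2 and 3. The 2 pools of embryo 1 lay above all 4 others, and the pools of the 3 embryos did not overlap. On a log2 scale the mean of embryo 1 exceeded that of embryo 2 by 2.29, a 4.88-fold difference. The other 2 probe sets, 1425107_a_at and 1450207_at, also gave embryo 1 the highest mean. For 1425107_a_at the left pools read 1299.5, 499.98 and 369 and the right pools 644, 396 and 409. For 1450207_at the left pools read 1035, 375 and 363 and the right pools 596, 312 and 465. Here the left pool of embryo 1 stood far above its right pool, a gap that 1454984_at did not show. The 3 probe sets thus gave different ratios in embryo 1 (−0.15, −1.01 and −0.80), and mean log2(R/L) values of 0.30 ± 0.40, −0.40 ± 0.58 and −0.24 ± 0.58 (SD, n = 3 embryos).

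Il6st, the gp130 chain used by the whole interleukin-6 family, was also highest in embryo 1, by all 4 of its probe sets. The first, 1452843_at, gave 3674, 2944 and 1742 for the left pools and 3139.9, 2223 and 1833 for the right pools. For 1437303_at the left pools read 1661, 501 and 1059 and the right pools 1689, 852 and 999. The pools of the 3 embryos did not overlap with either of these probe sets, but they disagreed on which of embryos 2 and 3 was lower. With 1421239_at the range was 247 to 762, with embryo 2 lowest, and with 1460295_s_at it was 98.7 to 454, with embryo 3 lowest. The mean log2(R/L) of the 4 was −0.19 ± 0.24, 0.24 ± 0.46, 0.13 ± 0.44 and 0.28 ± 0.64 (SD, n = 3 embryos), without a shared sign.

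The difference between embryos was tested with the F-test of limma on the embryo term, beside the spread left after side and embryo. Among the 15 member probe sets, 1 passed an adjusted p of 0.05, against 0.27% of all tested probe sets. It was Lifr 1454984_at (adjusted p = 0.0284). At an unadjusted p under 0.05 there were 7 of 15, against 15.3% of all, and these 7 are the 3 probe sets of Lifr and the 4 of Il6st. Probe sets of 1 gene are not independent of each other, and the 7 belong to 2 genes. The adjusted p for the other Lifr probe sets was 0.192 and 0.216, and for Il6st it ran from 0.123 to 0.235. Lifr 1454984_at lost the call when no filter on signal was used (adjusted p = 0.0944) and when variances were modelled without a trend (0.232). Over the alternatives that kept pools in pairs, its adjusted p by this test ran from 4.28e-05 (without embryo 2) to 0.232. The 3 embryos are single animals, so the test speaks of these 3 and of no group.

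**Figure D2:**
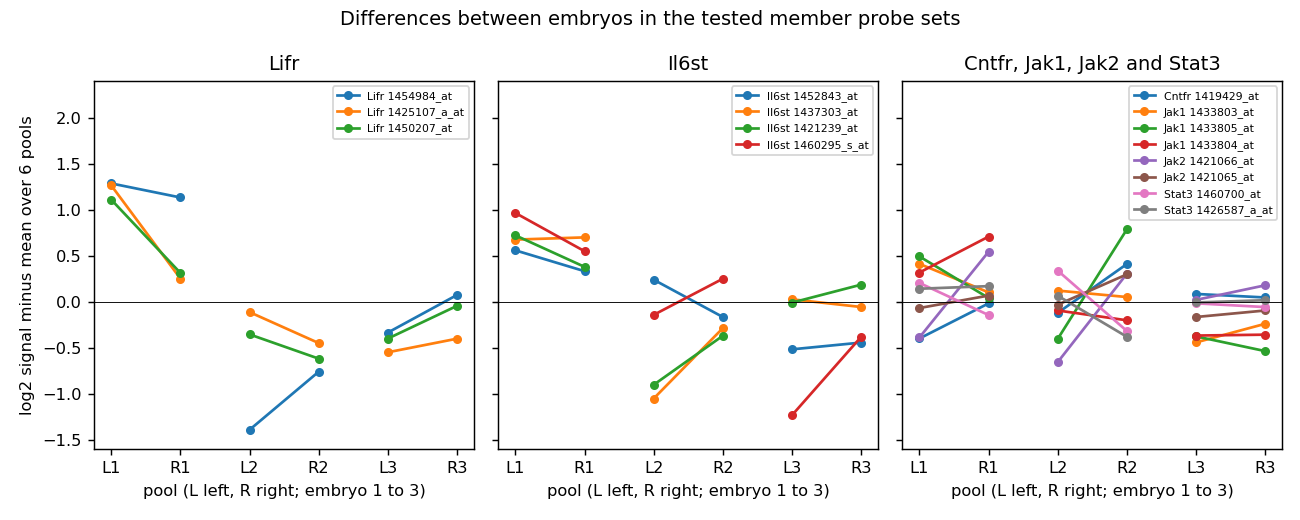
Log2 signal of each of the 15 tested member probe sets, centred on its mean over the 6 pools (y axis), in the left (L) and right (R) pools of embryos 1 to 3 (x axis), with a line joining the pools of an embryo. All 7 probe sets of Lifr and Il6st are highest in embryo 1, and the 8 probe sets of Cntfr, Jak1, Jak2 and Stat3 differ less between embryo means.

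The other tested member probe sets had smaller differences between embryos. Between the highest and lowest embryo mean, log2 signal differed by 0.35 for Cntfr 1419429_at, by 0.28 and 0.26 for the 2 probe sets of Jak2 and by 0.07 and 0.31 for the 2 tested ones of Stat3. Probe sets below the limit could vary as much, as with 1.88 for Clcf1 1437271_at and 1.36 for Stat3 1424272_at. For Jak1 the difference was 0.60, 0.72 and 0.88. Embryo 1 had the highest mean of log2 signal with 12 of the 15 member probe sets, against 33.8% of all tested. These 12 belong to Lifr, Il6st, Jak1 and Stat3 and are not independent. Some were near ties. Linear means of embryos 1 and 2 were 824 and 828 for Stat3 1460700_at and 719 and 733 for Jak1 1433805_at. The median difference between embryos over all tested probe sets was 0.49, against 0.88 over the 15, and 4.09% had a difference at least as large as that of Lifr 1454984_at.

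Several markers of cell type moved with the embryos. The summed signal of 9 motoneuron genes, of which Prph made up the largest part, was 42740, 33232 and 24997 in the left pools and 42527, 29773 and 25078 in the right pools. Not all 9 followed the order of this sum, since Lhx3 was lowest in embryo 2 and Isl1 was highest in the left pool of embryo 2. All 9 reached the limit, and the ranges of the sum on the left (24997 to 42740) and right (25078 to 42527) nearly coincided. For 7 neural progenitor genes, 4 of which reached it, the sum was 2438 and 3304 in embryo 1 and 4893 to 5378 in embryos 2 and 3. Nes made up most of this sum (2056 and 2570 in embryo 1, 3380 to 3902 in the others), and Sox2 read 26.3 and 193 in embryo 1 and 443 to 964 in the other 4 pools. Not all genes of the list were low there, since Hes1 read 119 and 141 in embryo 1 and 46.8 to 127 elsewhere. Xist, transcribed from the inactive X chromosome of females, read from 2768 to 13416 in embryo 2 over its 3 probe sets and at most 80.5 elsewhere, so that sex and embryo cannot be told apart for embryo 2. The part of these markers in the signals of Lifr and Il6st was not tested.

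Mesenchyme and muscle set the right pool of embryo 1 apart. The sum over 11 mesenchyme genes (9 reaching the limit) was 17979 there and 1210 to 2875 in the 5 other pools, and that over 6 skeletal muscle genes (4 reaching it) was 4687 against 153 to 438. In embryo 1 the left pool read higher than the right with 6 of the 7 probe sets of Lifr and Il6st. The exception was Il6st 1437303_at (1661 and 1689). Probe sets of the same gene are not independent, and the share of all tested probe sets with a higher left pool in embryo 1 was not counted. The mesenchyme and muscle sums of that left pool were 2098 and 306. Their part in the signals of Lifr and Il6st was not tested. A fit without the right pool of embryo 1, a choice made after its marker signals were seen, left 1 array for that embryo. It could not separate pool from embryo there, and its calls are not given. Sums over the other marker lists ran from 1784 to 2327 on the left and 1438 to 2545 on the right for endothelium (8 genes, 4 reaching the limit), from 1598 to 2241 and 2019 to 2302 for microglia and macrophages (7, 5 reaching it), from 3082 to 5019 and 3243 to 6083 for dividing cells (5 measured of 6) and from 721 to 1105 and 873 to 967 for glia and sensory ganglia (4 measured of 6). No marker was listed at 0.

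**Figure D3:**
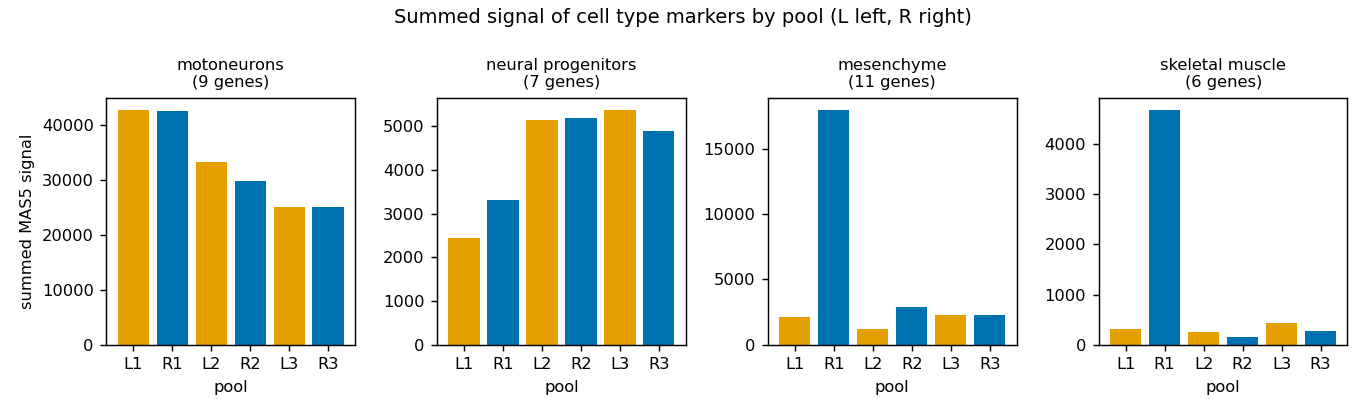
Summed MAS5 signal (y axis, from 0) of the markers of 4 cell types by embryo (x axis), with orange bars for left and blue bars for right pools. Motoneuron sums are largest in embryo 1 and smallest in embryo 3, progenitor sums are lowest in embryo 1, and mesenchyme and muscle sums are high in the right pool of embryo 1 only.

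Jak2, a kinase of gp130, was the only member to meet the fold rule of the methods, and with only 1 of its 2 probe sets. By this rule the 3 embryos must share a sign, and log2(R/L) must pass 0.58 (1.5-fold) both on average and in 2 or more of them. Jak2 1421066_at gave left signals of 424, 352 and 563 and right signals of 809, 685 and 628. Every right pool exceeded every left pool, but the share of all tested probe sets with such a separation of the sides was not counted. The log2(R/L) of Jak2 1421066_at was 0.93, 0.96 and 0.16, with a mean of 0.68 ± 0.46 (SD, n = 3 embryos), a 1.61-fold difference. The limma interval ran from 0.12 to 1.25 (unadjusted p = 0.0224, adjusted p = 0.974). The second probe set, 1421065_at, gave 587, 602 and 548 for left pools and 644, 756 and 576 for right pools, again higher on the right in 3 of 3 embryos. Its mean was 0.18 ± 0.13 with an interval of −0.30 to 0.65. In embryo 3 both probe sets lay near equality, at 0.16 and 0.07. Without embryo 1 or embryo 2, Jak2 1421066_at averaged 0.56 and 0.55, just inside the limit, and no member met the rule. The mesenchyme sums were 2098 and 17979 in embryo 1 (left, then right), 1210 and 2875 in embryo 2 and 2316 and 2315 in embryo 3, and their part in the Jak2 ratio was not tested.

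Jak1, the kinase on which gp130 signalling depends most, showed no direction shared by the embryos. By 1433803_at its left signals were 1352, 1105 and 748 and its right signals 1091, 1053 and 860.4, and by 1433804_at it ranged from 221 to 466 over the 6 pools. The third probe set, 1433805_at, read 446 in the left pool and 1019 in the right pool of embryo 2, while the left signals of embryos 1 and 3 were 831 and 455 and the right ones 607 and 407. Its mean log2(R/L) of 0.19 ± 0.88 therefore rested on embryo 2, without which it was −0.31. The means of the others were −0.06 ± 0.26 and 0.10 ± 0.26 (SD, n = 3 embryos).

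Stat3, the transcription factor at the end of the cascade, had no probe set that passed a test between sides. By 1460700_at the left pools read 923, 1013 and 792 and the right pools 724, 642 and 769.5. The left pool was higher in 3 of 3 embryos, and the sides did not overlap. The share of all tested probe sets without such overlap was not counted, so the separation is not read as a trait of Stat3. The mean log2(R/L) was −0.35 ± 0.31 (SD, n = 3 embryos), with a limma interval of −0.82 to 0.12 (adjusted p = 0.974). By 1426587_a_at the left pools read 390.0, 369.9 and 352 and the right pools 398, 271 and 358, so that the left was higher in embryo 2 only. Its mean was −0.13 ± 0.27, and the remaining 2 probe sets stayed between 32.2 and 188.

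Socs3, the feedback inhibitor, was read by 3 probe sets that did not reach 200 in any pool. Its probe set 1455899_x_at gave left signals of 61.5, 78.5 and 88.9 and right signals of 183, 123 and 60.1. The highest value came from the right pool of embryo 1, as it did with 1456212_x_at (150.4, against 58.9 to 86.6 in the others). That pool is the one with the high mesenchyme and muscle sums, whose part in these signals was not tested. Both 1455899_x_at and 1456212_x_at are of a kind that can bind other transcripts too. The third probe set, 1416576_at, lay between 5.77 and 19.8 and was highest in the right pool of embryo 2. Clcf1, the ligand that acts through the same receptor, lay between 3.52 and 60.2 over its 3 probe sets. Its 2 dimmest probe sets on the left in embryo 1 (9.24 and 3.52) read 57.7 and 56.1 on the right. These values are below the limit, so they were not tested, and a low signal does not show that a transcript is absent. The probe set shared by Cntf, Zfp91 and Gm44505 read 28.1 to 325 and cannot be given to Cntf.

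In the comparison of sides, 1 of 15 member probe sets met the fold rule with the right higher, against 2.4% of all 21853 tested, and 0 with the left higher, against 1.55%. With limma 0 passed an adjusted p of 0.05, as was the case for 0% of all. At an unadjusted p under 0.05 there was 1 (Jak2 1421066_at), against 3.4% of all. The mean log2(R/L) was above 0 for 9 and below 0 for 6, with a median of 0.13 against 0.02 over all tested probe sets. The median was −0.03 without embryo 2. All 3 embryos had the same sign with 3 of the 15, both probe sets of Jak2 and Stat3 1460700_at, each with an exact two-sided sign-flip p of 0.25, the smallest that 3 pairs allow. Of the 66 tested probe sets of other pathway genes, described below, 18 had the same sign in all 3 embryos. The share over all tested probe sets was not counted, so 3 of 15 is not read as a trait of the members. Differences between sides are read against the spread of log2(R/L) over embryos, whose median SD was 0.39 over all tested probe sets. With 3 pairs, differences near or below that spread may be missed, and larger ones too.

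**Figure D4:**
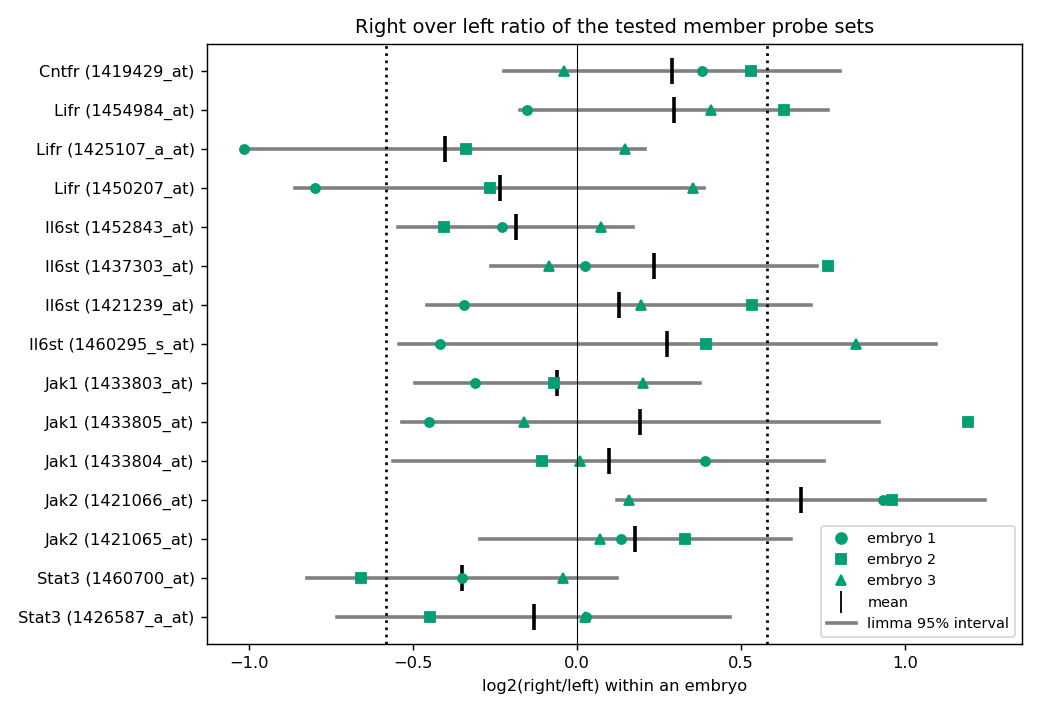
Log2(right/left) of the 15 tested member probe sets (x axis) in embryos 1 (circle), 2 (square) and 3 (triangle), with the mean (black bar), the limma 95% interval (grey line) and the 1.5-fold limits (dotted, ±0.58). The interval of Jak2 1421066_at, 0.12 to 1.25, lies to the right of 0, and the 14 others cross 0.

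The wider pathway was read through 53 further genes, of which 47 have a probe set of their own (116 in all). Signals are set here against the limit of 200 only, not against each other. Counting Clcf1, 6 of 10 listed ligands were measured and 0 reached 200, with peak signals of 185 for Ctf1, 131 for Lif and 105 for Osm. Among receptors, Sort1, a sorting receptor, reached the limit beside Cntfr, Lifr and Il6st, whereas Il6ra, which binds interleukin-6, peaked at 146, Osmr, the oncostatin M subunit, at 129, and Il27ra at 7.96. All 6 adaptors reached the limit, as did 14 of 16 measured inhibitors and phosphatases, 3 of 4 kinases and 3 of 6 Stat factors. Of 10 genes known as targets in other tissues, 4 did (Bcl2l1, Mcl1, Pim1 and Myc), and Gfap (103), Fos (43.1), Junb (64.5), Bcl3 (46.9), Cebpb (74.7) and Cebpd (168) did not. The limit separates readings on this array and not presence from absence.

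**Figure D5:**
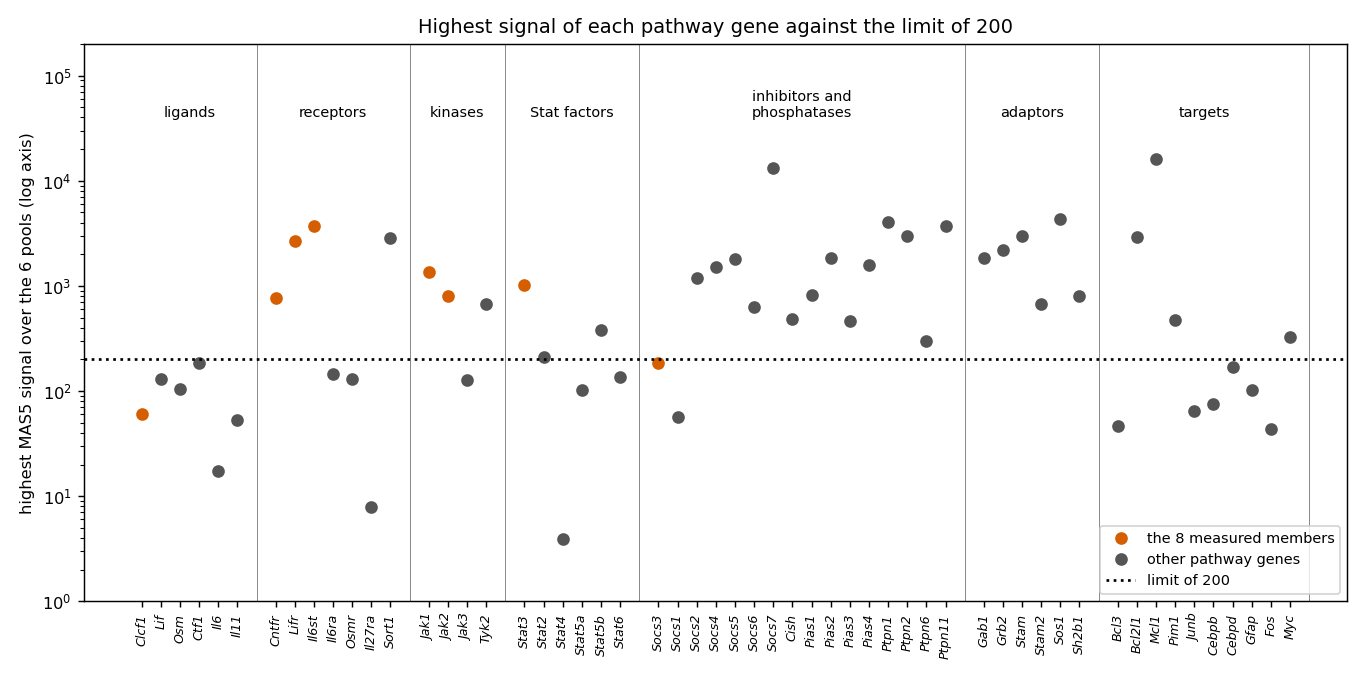
Highest MAS5 signal over the 6 pools (y axis, log) of each measured pathway gene, by role, with members in orange and the limit of 200 dotted. All 6 measured ligands lie below the line and all 6 adaptors above it, and signals of different genes are shown against the limit only.

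Among these other genes 66 probe sets of 28 genes were tested, and 2 met the fold rule with the right higher (2.4% of all tested did) and 0 with the left higher (1.55%). These counts are near the shares over all probe sets. Pias4, a SUMO ligase that restrains Stat factors, gave left signals of 151, 171 and 194 and right signals of 278, 231 and 377 by 1418861_at. Its mean log2(R/L) was 0.76 ± 0.28 (SD, n = 3 embryos; adjusted p = 0.974). This probe set reached 200 on the right only, so that passing the limit already favoured that side, and the brighter probe set of Pias4, 1455394_at, averaged 0.35 ± 0.45. Ptpn6, a phosphatase of blood cells that dephosphorylates Jak kinases, averaged 0.74 ± 0.58, with left signals of 122, 121 and 213 and right signals of 203, 302 and 238. Its probe set 1456694_x_at is of a kind that can bind other transcripts too, and it did not meet the rule with median scaling or with 50 added. The other probe set of Ptpn6, 1460188_at, averaged −0.38 ± 1.32. It peaked at 121, under the limit, and was not tested. With limma 0 of 66 passed, and 3 had an unadjusted p under 0.05, against 3.4% of all tested. Those were Pias4, Socs7 1434834_at (−0.51 ± 0.61) and Ptpn2 1438562_a_at (−0.64 ± 0.83), a phosphatase of Jak1 and Stat factors.

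Much of the difference came from embryo 1 for Socs7 and from embryo 2 for Ptpn2. Socs7, of the same family as Socs3, read 3638 and 1597 in embryo 1 (left, then right), and 3899 and 3897 in embryo 3. Its other tested probe sets averaged 0.05 and −0.19. Ptpn2 read 3005 and 1004 in embryo 2 (left, then right) and 2591 and 2502 in embryo 3. A second probe set of Ptpn2 repeated this, with 1531 and 606 in embryo 2 and a mean of −0.52, whereas a dimmer tested one averaged 0.02. The median over the 66 was 0.02, as over all tested probe sets. Between embryos, 0 of the 66 passed by limma and 7 had an unadjusted p under 0.05, against 15.3% of all tested.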

How the data were processed

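Left and right pools of 3 embryos were measured on 6 arrays (Affymetrix GeneChip Mouse 430 2.0). According to the labels and methods, the authors computed signal intensities with MAS5 in Affymetrix Expression Console (version not given in the sources used here), and the deposited values are intensities on a linear scale with a trimmed mean of 500.003 on each array. Medians ran from 99.9 to 118, and the number of arrays limits the precision. Present calls were not used here. Array symbols came from the platform annotation, in which 34945 of 45037 probe sets other than controls have 1 gene, 932 several and 9160 none.

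Signals were taken to log2 with no added constant, and 64 control probe sets were left out. Probe sets with a signal of 200 or more on at least 1 array were kept (21853). Differences between sides and between embryos were tested in 1 limma fit (version 3.58.1, R 4.3.3) that held a term for side and one for embryo, with variances with a trend on mean signal, and Benjamini-Hochberg adjustment over all tested probe sets at 0.05. The embryo term pairs pools of the same animal. After subtraction of side means, both pools of an embryo correlated at 0.241, 0.215 and 0.495 (embryos 1 to 3). The script was tested on simulated data. Marker sums used the brightest probe set of each gene. Promoter stretches were read with Python 3.11.15.

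All probe sets of the members are named, as are other pathway genes that met the fold rule or had an unadjusted p under 0.05, and the 3 probe sets nearest to Cntfr. For the signal limit, genes were named after their values were seen. The members, pathway genes and marker lists were chosen with earlier results of these data known. Alternatives covered scaling, an added constant, the signal limit, the embryo term, the variance model, the fold limit and leaving out each embryo.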

Additional observations from a re-analysis of the deposited data

How the results depend on the processing

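Counts of member probe sets that passed limma between sides (0) and that met the fold rule with the left higher (0) did not change under any alternative run. With no replicate block (the embryo term left out) the count between sides was also 0, with an adjusted p of 1.00 for Jak2 1421066_at, and no other call changed under that setting. The fold rule with the right higher gave 2 members with no signal filter (Jak2 and Socs3 1416576_at, whose signals are under 20), and 0 with a 2-fold limit or beyond 1.5-fold in all 3 embryos. Leaving out each embryo gave 0 to 1. The count of members that differed between embryos was 0 with no signal filter and 0 without a variance trend, and 1 to 7 when pools were left out (4 without embryo 2, 7 without the right pool of embryo 1, added after seeing the data). Over all probe sets that count was 59 of 21853, and it was 1291 of 20825 without embryo 2, 1067 of 20729 without embryo 1 and 12 of 21140 without embryo 3. For the other pathway genes the fold rule gave, with the right higher, 1 with median scaling, 1 with 50 added, 6 with no signal filter, 0 at a limit of 500, 1 at a mean of 200, 0 at 2-fold, 0 beyond 1.5-fold in all 3 embryos and 0 to 2 without each embryo. With the left higher it gave 5 with no signal filter and 0 to 2 without each embryo.

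The sign of the mean log2(R/L) changed in 8 of the single results, all when 1 embryo was left out. The ranges were −0.074 to 0.36 for Il6st 1421239_at, −0.030 to 0.39 for Il6st 1437303_at, −0.011 to 0.62 for Il6st 1460295_s_at, −0.19 to 0.066 for Jak1 1433803_at, −0.049 to 0.20 for Jak1 1433804_at, −0.31 to 0.52 for Jak1 1433805_at, −0.53 to 0.046 for Lifr 1450207_at and −0.21 to 0.026 for Stat3 1426587_a_at. The cause was not tested. With 2 embryos left, the fold rule asked for a change beyond the limit in both.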
